A study of Mus musculus with 24 samples.

Results

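miR-140 is a microRNA best known from cartilage, and both of its arms were followed in extracellular vesicles (EVs) of mouse serum. The members were the rows mmu-miR-140-3p and mmu-miR-140-5p of the count table that the authors deposited, which makes 2 of 1966 rows. Both passed the filter on low counts (at least 10 CPM, that is counts per 1000000 counts of the library, in at least 12 of the 24 libraries) and were thus 2 of the 252 miRNAs tested. The 24 libraries came from wild type male C57BL/6 mice aged 14 to 16 weeks, 1 library per mouse. In the 3 surgery groups the tibia was fractured in the open and stabilized with an intramedullary pin under isoflurane, and blood was taken 6 h (S6h), 24 h (S24h) or 72 h (S72h) later, with 6 mice at each time. The 6 Control mice had no surgery. Mice with surgery received buprenorphine, daily in the S24h and S72h groups, and Control mice received saline instead, so that fracture, anesthesia and analgesic cannot be told apart. The EVs were precipitated from serum with a commercial reagent and column, which also limits them as a model, since vesicles of all tissues and of blood cells were sequenced together. The Control mice were the controls of the 6 h animals, and the controls of the 24 and 72 h animals (C24-72h) were not analysed here. Time after surgery and set of animals therefore cannot be told apart where S24h or S72h is compared with Control or S6h. The authors' methods give the lack of a statistical difference between their sets of controls as the reason for keeping a single set, which was not checked here.

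The miR-140 hairpin is transcribed from an intron of Wwp2, which encodes an E3 ubiquitin ligase, and its expression in chondrocytes depends on the transcription factor Sox9. Mice that lack it have short long bones and an early loss of articular cartilage, and the aggrecanase gene Adamts5 and the histone deacetylase gene Hdac4 are known targets of the 5p arm. A miRNA hairpin is cut into a 5p and a 3p arm, either of which can be loaded onto Argonaute, and the loaded arm finds its targets mainly through its seed, bases 2 to 8. miR-140 stands out because both arms are used in cartilage. The reads of serum EVs do not name the cell that released them, and in such bulk samples fewer vesicles from a source and less of a miRNA per vesicle cannot be told apart.

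The hairpin is shown first, with the 3p arm (bases 45 to 65 of 70) in capitals, because the counts below lie almost wholly on that arm. The mature 3p sequence follows with its seed in capitals, and the third sequence is the only other of 1679 mature mouse entries that carries the same seed, which had 0 counts in all 24 libraries. The sequences are from RefSeq on GRCm38.p6, in which 1 of the 2 members was matched. mmu-miR-140-5p is named only.
Mir140 hairpin: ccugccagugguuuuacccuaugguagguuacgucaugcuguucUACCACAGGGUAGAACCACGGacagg
mmu-miR-140-3p: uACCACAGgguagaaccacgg
mmu-miR-497b: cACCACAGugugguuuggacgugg
The hairpin lies at chr8:107551244-107551313 on the plus strand of GRCm38, with the 3p arm at chr8:107551288-107551308. In the Gencode annotation of the same build it is in intron 16 of the 24-exon transcript Wwp2-201 (ENSMUSG00000031930.11, plus strand), an intron from 107550136 to 107552276. It is also intronic in Wwp2-204 (intron 15) and Wwp2-205 (intron 7) and lies within Wwp2-206, a transcript of 1 exon annotated as a retained intron. mmu-miR-497b is encoded elsewhere, at chr11:70234763-70234786 on the minus strand.

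The libraries held between 63956 and 471801 counts, so that 1 read was worth between 2.12 and 15.6 CPM. Where no read was counted, up to 3 counts are still possible, or between 6.36 and 46.9 CPM. These limits, and the intervals given below, cover counting error only. CPM values below are counts divided by the column total of the library with the mean ± SD of each group (n = 6 mice). No 2 libraries were identical. The summed levels of miRNAs of other sources are given by group. The 4 skeletal muscle miRNAs, led by mmu-miR-1a-3p, were at 34121 to 90196 CPM in Control, 60177 to 265409 in S6h, 15599 to 43523 in S24h and 6442 to 237330 in S72h. The top of S72h was replicate 1, and the median was 27726 CPM in S72h beside 117870 in S6h. The 2 liver miRNAs, led by mmu-miR-122-5p, ranged from 3706 to 160092 CPM in Control, from 2214 to 28328 in S6h, from 7892 to 52209 in S24h and from 4768 to 299754 in S72h. The 5 erythroid miRNAs, led by mmu-miR-451a, lay at 43182 to 88122, 32925 to 66100, 15144 to 53514 and 17095 to 104748 CPM in the same order. The 4 leukocyte miRNAs, led by mmu-miR-142a-5p, lay at 4225 to 9730, 4721 to 7379, 6603 to 16899 and 2941 to 9676 CPM, with means of 7128, 5794, 9628 and 6507. Their mean was thus lowest in S6h and highest in S24h, as was that of miR-140-3p below. In S72h it lay below Control, where that of miR-140-3p lay above. The members also differed. miR-342-3p was lowest in Control (1868 CPM, 2192 in S6h) and miR-142a-5p in S72h (2193 CPM, 2240 in S6h), while miR-142a-3p and miR-150-5p were lowest in S6h. The 3 platelet and vascular miRNAs, led by mmu-miR-126a-3p, lay at 4453 to 10398, 6981 to 10878, 5339 to 11810 and 3461 to 12179 CPM.

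The cartilage label was checked against miR-455, which chondrocytes also express and which lies in an intron of the collagen gene Col27a1. miR-455-5p had 39 counts in 4 of 24 libraries and miR-455-3p had 205 counts in 16. The 2 arms of miR-675, which chondrocytes make from the H19 transcript, had 0 counts in every library. Of the 4 cartilage markers, mmu-miR-140-3p thus carried nearly all counts, and its own level is what the cartilage list measured. The cells that released it were not tested, and the miRNA is called by its name only.

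The 3p arm was the abundant one. Its mean over the 24 libraries was 10559 ± 4683 CPM (SD), or 1.06% of all counts, and it ranked 27 of 1966 by mean CPM. Counts of miR-140-3p ranged from 355 to 3654 per library. The 5p arm, at 123 ± 118 CPM, ranked 154. It had between 0 and 58 counts per library, with fewer than 10 in 10 libraries and 0 in 3, so that the level of miR-140-5p in a single mouse is poorly known.

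In Control mice, miR-140-3p was at 12458, 9350, 11443, 2645, 8907 and 7653 CPM in replicates 1 to 6 (8743 ± 3460). Control replicate 4 was the lowest of all 24 libraries, and its liver miRNAs were at 156864 CPM, a level close to that of Control replicate 1 (160092), which had the highest miR-140-3p of the group. In S6h the values were 4500, 4066, 10266, 5121, 5411 and 8098 CPM (6244 ± 2423). All but 1 of them lay below the Control median of 9129, yet within the Control range.

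At 24 h the 6 mice had 15382, 12629, 18782, 13233, 9246 and 14688 CPM of miR-140-3p (13993 ± 3172). S24h replicate 5 was the only one below the highest Control value. In S72h the values were 14913, 12401, 10756, 5647, 19902 and 15912 CPM (13255 ± 4876), which include the highest level of the study. The lowest, S72h replicate 4, was the library with the highest liver miRNAs (299754 CPM). Neighbouring groups in the order S6h, Control, S72h, S24h overlapped, as did every other pair of groups.

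**Figure D1:**
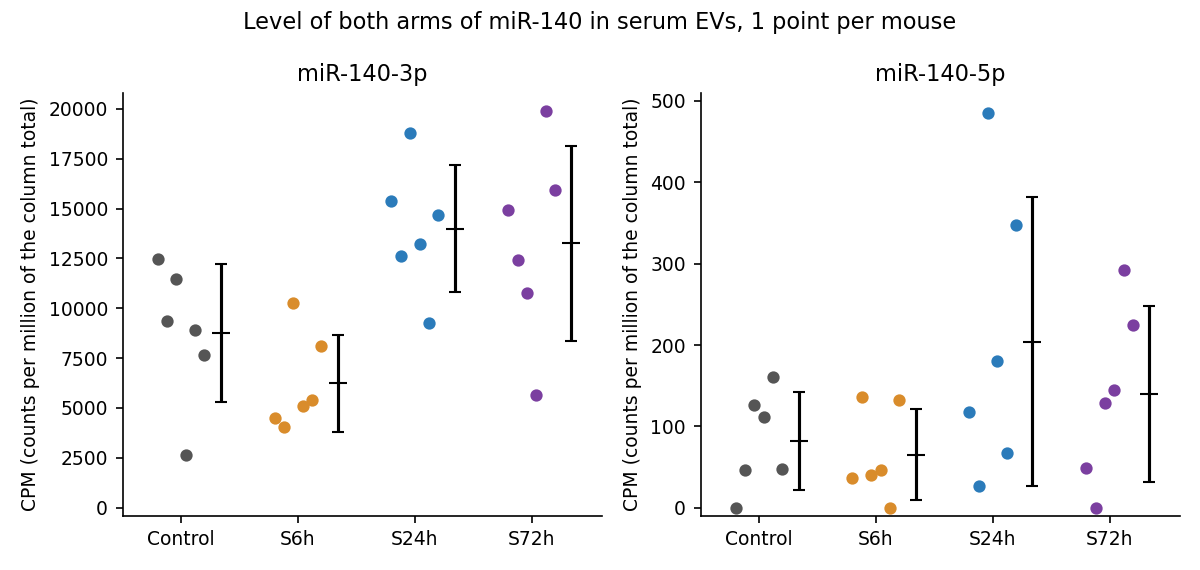
CPM of miR-140-3p (left) and miR-140-5p (right) per mouse in Control, S6h, S24h and S72h, 6 points per group, with the mean and SD as black bars. The vertical scales differ between the panels. In the left panel 5 of 6 points of S24h and 5 of 6 of S72h lie above the highest S6h point (10266 CPM), while the points of miR-140-5p overlap widely.

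Differences between groups were tested on the counts by fitting all 24 libraries together with edgeR's quasi-likelihood test. A miRNA is called here at a Benjamini-Hochberg adjusted p under 0.05 over the 252 tested and a fold change of at least 1.5. miR-140-3p was higher in S24h than in S6h, by 0.95 on the log2 scale (SE 0.31, 1.93-fold, adjusted p = 0.0324), beside 20.2% of all tested miRNAs called in this comparison. It was also higher in S72h than in S6h, by 1.07 (SE 0.31, 2.09-fold, adjusted p = 0.0227), where 9.92% were called. The median over all tested miRNAs was -0.23 and 0.04 on the log2 scale in these comparisons. In each of them 5 of 6 mice lay above the highest S6h mouse and 6 of 6 above the S6h median of 5266 CPM. S24h replicate 5 (9246) lay below S6h replicate 3 (10266), and S72h replicate 4 (5647) below S6h replicates 3 and 6 (8098).

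These calls depended on single mice. With 1 mouse left out at a time, the call between S24h and S6h was lost in 6 of 24 fits, namely without S6h replicates 1, 2, 4 or 5 or without S24h replicates 1 or 3. Over all 24 fits the log2 fold change stayed between 0.85 and 1.10, with a highest adjusted p of 0.0740 by edgeR's quasi-likelihood test. The call between S72h and S6h was lost in 5 of 24 fits (without S6h replicates 1, 2, 4 or 5 or S72h replicate 5). Its log2 fold changes over all 24 fits were 0.96 to 1.22, with a highest adjusted p of 0.0677 by the same test.

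Against Control, no call was made for miR-140-3p. The log2 fold change by edgeR was -0.43 in S6h (SE 0.31, adjusted p = 0.991), 0.51 in S24h (SE 0.31, adjusted p = 0.265) and 0.63 in S72h (SE 0.31, adjusted p = 0.254), and 0%, 11.9% and 3.57% of all tested miRNAs were called. Between S72h and S24h it was 0.12 (SE 0.30, adjusted p = 0.986), with 0.397% called. For S6h against Control, where edgeR called 0 miRNAs, 9 had an unadjusted p under 0.05 and DESeq2 also called 0. Neither comparison within a set of animals, S6h with Control or S72h with S24h, gave a call for either arm.

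The same comparisons were made on log2 CPM of the column totals, with a pseudocount of 4, by exact two-sided permutation tests over the 924 assignments of 12 mice. By this measure miR-140-3p was 1.60-fold higher in S24h than in Control as a ratio of mean CPM (exact permutation p = 0.0173, adjusted p = 0.0346 over the 6 pairs of groups), a difference that edgeR did not call. All 6 S24h mice lay above the Control median and 5 above the highest Control mouse. S24h exceeded S6h 2.24-fold (exact permutation p = 0.00433, adjusted 0.0260) and S72h exceeded S6h 2.12-fold (exact permutation p = 0.0108, adjusted 0.0325). The exact permutation p was 0.299 for S6h against Control, 0.152 for S72h against Control and 0.662 for S72h against S24h. The smallest p this design allows is 0.00216.

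**Figure D2:**
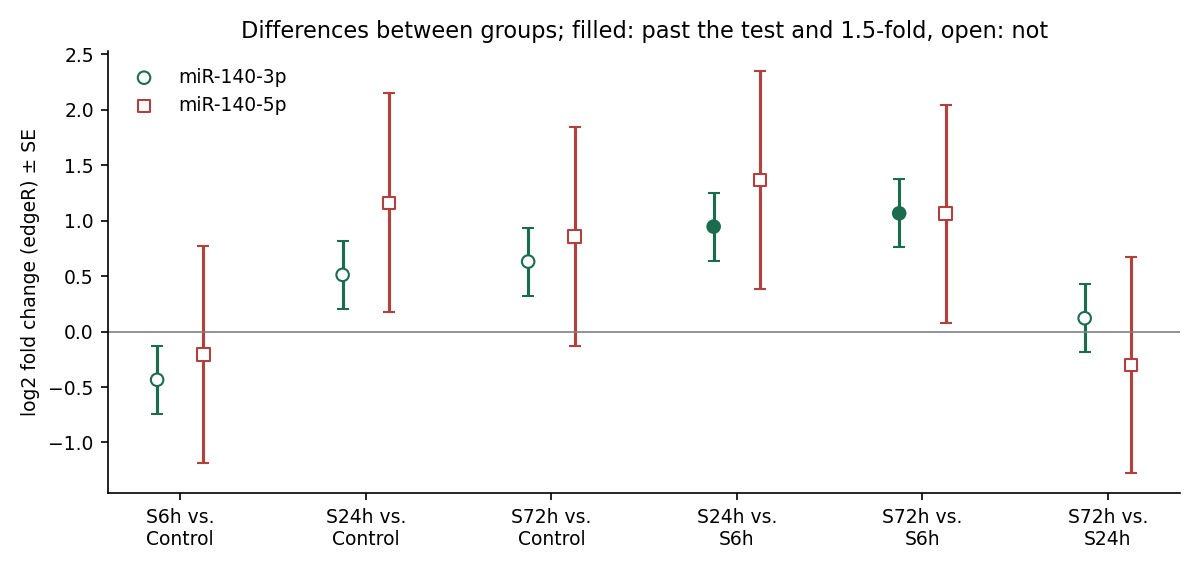
Log2 fold change of miR-140-3p (circles) and miR-140-5p (squares) in the 6 pairs of groups, with the SE as bars, from edgeR's model of all libraries. Only miR-140-3p in S24h and in S72h against S6h is filled, which marks a call, and the SE of miR-140-5p is about 0.98 in each pair against about 0.31 for miR-140-3p.

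Because miR-140-3p was lowest in S6h, where the muscle miRNAs were highest, its CPM was also computed on the counts outside the skeletal muscle and liver lists, a step added after the data were seen. Those lists held 5.04 to 21.7% of the counts in Control, 7.48 to 27.96% in S6h, 3.37 to 9.57% in S24h and 1.38 to 33.4% in S72h. Outside them, miR-140-3p was at 10014 ± 3995 CPM in Control, 7424 ± 2489 in S6h, 14799 ± 3331 in S24h and 14862 ± 4898 in S72h. With totals and scaling recomputed in this way, edgeR gave 1.07 for S24h against S6h (adjusted p = 0.0105) and 1.18 for S72h against S6h (adjusted p = 0.00782), and both calls remained. Leaving out the erythroid list in the same way gave 0.91 and 1.09 (edgeR adjusted p = 0.0379 and 0.0212). The part of the platelet, vascular and leukocyte miRNAs in these differences was not tested.

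miR-140-5p was at 0, 46.9, 126, 112, 161 and 47.7 CPM in the Control mice, from 0 to 21 counts. It was at 36.2, 136, 40.5, 46.6, 0 and 132 CPM in S6h and at 118, 27.1, 485, 180, 67.8 and 348 CPM in S24h. In S72h the values were 49.0, 0, 128, 144, 292 and 224 CPM. The group means were 82.2 ± 60.4, 65.3 ± 55.8, 204 ± 177 and 140 ± 108 CPM, so that the SD was 73.4 to 86.8% of the mean, and all groups overlapped.

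The order of these means, S6h, Control, S72h, S24h, was that of the 3p arm, but neighbours in it did not differ beyond their spread. No call was made for miR-140-5p in any pair of groups. By edgeR's quasi-likelihood test the log2 fold change was 1.37 for S24h against S6h (SE 0.98, adjusted p = 0.390) and 1.06 for S72h against S6h (SE 0.98, adjusted p = 0.659). Against Control it was -0.21 in S6h (SE 0.98), 1.16 in S24h (SE 0.99) and 0.86 in S72h (SE 0.99), with adjusted p values of 0.991, 0.485 and 0.722. S72h against S24h gave -0.30 (SE 0.97, adjusted p = 0.986). With an SE of about 0.98, a change of the size seen for miR-140-3p was not detectable for miR-140-5p in these libraries. How much of this SE came from depth and how much from differences between mice was not tested.

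The share of the 5p arm among the counts of both arms is a measure within a library and does not depend on its total. Over all libraries 366 of 33029 counts came from miR-140-5p, which is 1.11% (exact 95% binomial interval 0.998 to 1.23%), or 89.2 counts of the 3p arm for each count of the 5p arm. The 3p arm had more counts in 24 of 24 libraries. Per mouse the share was 1.34 ± 1.46% in Control, 1.16 ± 1.15% in S6h, 1.31 ± 0.93% in S24h and 1.14 ± 0.89% in S72h. Single mice carried these means, since Control without replicate 4 was at 0.797 ± 0.671% and S6h without replicate 2 at 0.741 ± 0.603% (n = 5 each). With the counts of a group summed, which weights mice by their counts, the share was 0.763% in Control, 1.10% in S6h, 1.67% in S24h and 0.908% in S72h. Of the 7343 Control counts in that sum, 3279 came from replicate 1, which had none of the 5p arm.

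The share varied between mice of 1 group. Control replicate 1 had 0 of 3279 counts on the 5p arm, which allows a share of up to 0.0915% (upper exact bound 0.112%), whereas Control replicate 4 had 15 of 370, or 4.05% (exact interval 2.29 to 6.60%). In S24h the shares ran from 0.214% (2 of 934 counts) to 2.52% (58 of 2305). Control replicate 4, with the highest share, had the lowest miR-140-3p of the group and 112 CPM of miR-140-5p, beside a Control median of 79.7 CPM.

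**Figure D3:**
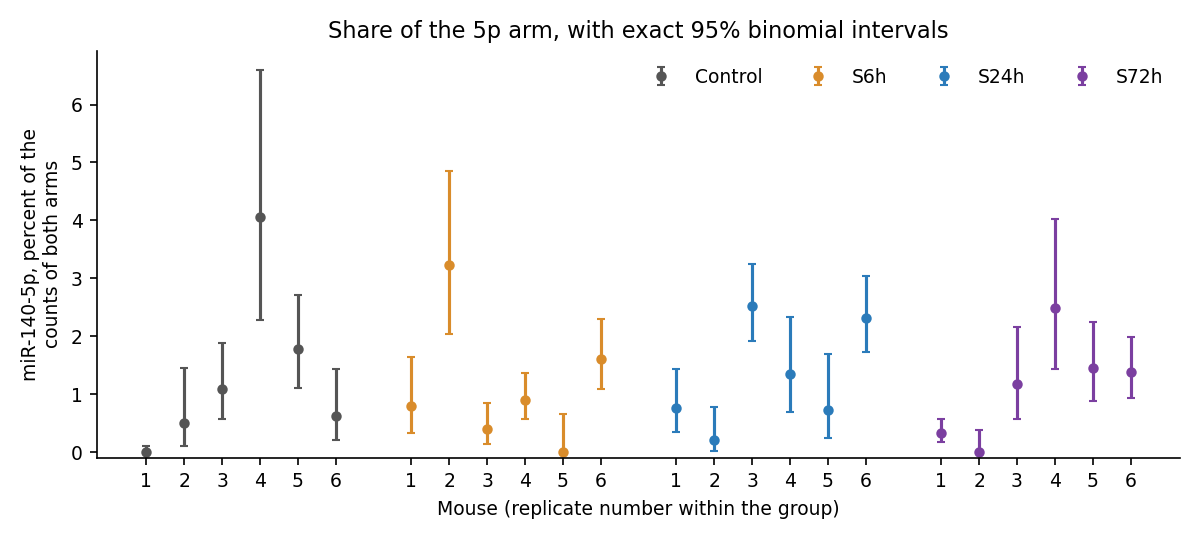
Share of miR-140-5p among the counts of both arms in each of the 24 mice, in percent, with exact 95% binomial intervals (counting error only), colored by group. The shares lie between 0 and 4.05%, and within every group some intervals do not overlap.

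The log2 ratio of the 3p to the 5p counts, with 0.5 added to each, was 7.34 ± 2.82 in Control, 7.06 ± 1.80 in S6h, 6.54 ± 1.22 in S24h and 7.14 ± 2.08 in S72h. It ranged from 4.52 in Control replicate 4 to 12.7 in Control replicate 1, where the 0 counts of the 5p arm make the value depend on what was added. The largest difference between groups, S24h against Control, was -0.80 (exact permutation p = 0.647). It turned to 0.27 without Control replicate 1, and was -0.36 with 4 added to each count in place of 0.5. The smallest, S72h against S6h, was 0.08 (exact permutation p = 0.948). S6h against Control gave -0.27 (0.80 without Control replicate 1), S72h against Control -0.20 (0.87 without it), S24h against S6h -0.52 and S72h against S24h 0.60, with exact permutation p values of 0.844, 0.879, 0.578 and 0.600. Adjusted over the 6 pairs of groups, every exact permutation p was 0.948. The within-group SD of 2.06 on the log2 scale was larger than each of these differences.

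This was read beside the other hairpins. In the table, 50 hairpins had both arms tested. Of their ratios 0% were called in each of the 6 pairs of groups by exact permutation tests adjusted over the 50, with 2 to 8 at an unadjusted p under 0.05, and the ratio was not run with another tool. The design nearly fixed this share, since a single hairpin at the smallest exact permutation p of 0.00216 has an adjusted p of 0.108, so nothing is read from it. In 16 of the 50 the 3p arm was the more abundant. miR-140 took place 5 in the order from 3p to 5p, after miR-133a (mean log2 ratio 7.65) and before miR-223 (5.59). Its own mean was 7.02. Its within-group SD of 2.06 was close to the median over the 50 pairs (2.05, range 0.267 to 3.47).

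**Figure D4:**
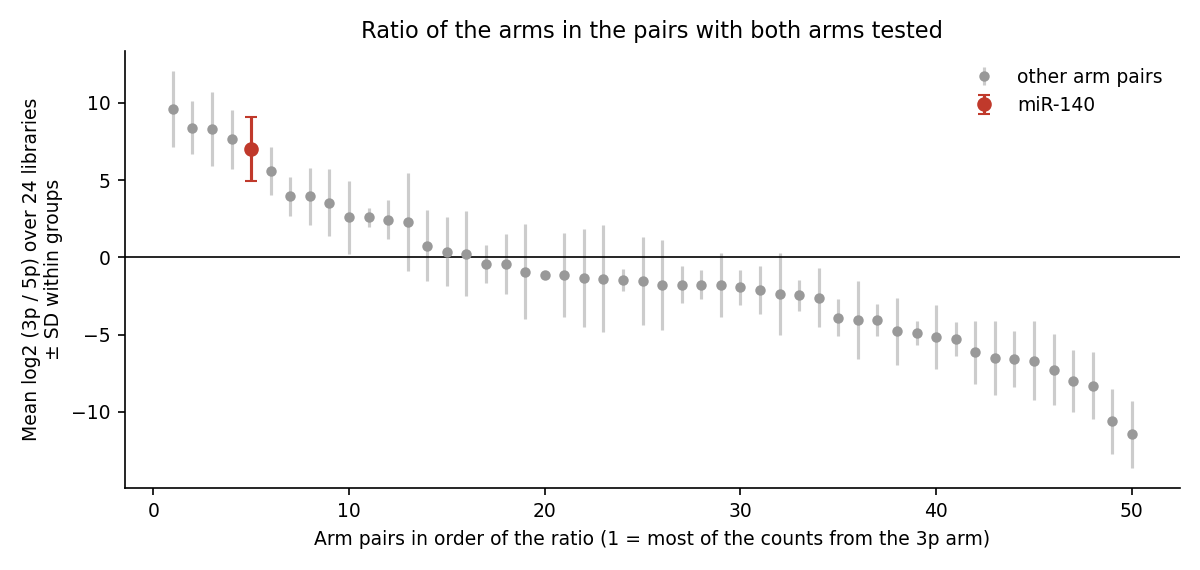
Mean log2 ratio of 3p to 5p counts over 24 libraries for the 50 hairpins with both arms tested, in order from 3p to 5p, with the SD within groups as bars. miR-140 (red, 7.02) is at place 5, among the 16 hairpins above 0.

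Across the 24 libraries the levels of the arms, as log2 CPM with a pseudocount of 4, had a Pearson r of 0.19 and a Spearman rho of 0.37, with permutation p values of 0.361 and 0.0757 (100000 permutations, 1 pair tested). Without the 2 libraries farthest from the median of miR-140-3p, r was 0.36. Within groups, of 6 libraries each, r was -0.41 in Control, 0.06 in S6h, 0.68 in S24h and 0.07 in S72h. The arms share a library and its total, and the counts of miR-140-5p are sparse. Ordered by rho with miR-140-3p, its own 5p arm took place 49 of the 251 other tested miRNAs.

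The miRNAs whose levels were most like those of miR-140-3p over the 24 libraries were mmu-miR-221-3p (Spearman rho 0.907), mmu-miR-185-5p (0.890) and mmu-miR-484 (0.870), given as a description since the values share libraries and totals. miR-221 is abundant in endothelium and blood cells. miR-221-3p and miR-484 are shown with their seeds in capitals, to set them beside the seed of miR-140-3p given above.
mmu-miR-221-3p: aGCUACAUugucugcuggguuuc
mmu-miR-484: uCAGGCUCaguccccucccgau
None of these seeds is that of miR-140-3p, and the 2 genes lie on other chromosomes, X and 16. miR-221-3p was at 8604 ± 4127 CPM in Control, 5931 ± 2733 in S6h, 17279 ± 3942 in S24h and 14048 ± 3333 in S72h. Its mean was thus also lowest in S6h and highest in S24h. As these miRNAs were picked for following miR-140-3p in the same libraries, their differences between groups were not tested apart.

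For miR-140-5p the most alike were mmu-miR-18a-3p (rho 0.532), mmu-miR-125b-2-3p (0.530) and mmu-miR-378a-3p (0.514). Its own 3p arm took place 17 of 251.

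A list of 22 miRNAs known from chondrocytes, cartilage matrix or bone cells was set beside miR-140. Because it was chosen with earlier results of these data known, its shares of calls are described only and nothing is read from them. Of the 22 listed, 22 were in the table and 15 were tested. The 3 with the highest mean were miR-26a-5p (20996 CPM), miR-29a-3p (9120 CPM), which targets collagens and other matrix genes, and miR-27b-3p (6513 CPM), known to target the matrix protease gene Mmp13. In S24h against S6h 1 of 15 was called higher and 5 lower (40.0%, beside 20.2% of all tested), with a median log2 fold change of -0.67, beside 16 higher and 35 lower of the 252 (23 and 20 with upper quartile scaling) and a median of -0.23. In S72h against S6h 1 was called higher and 2 lower (median -0.09), beside 11 higher and 14 lower of the 252 (9.92%, with 19 and 10 under upper quartile scaling and 20 and 16 by DESeq2) and a median of 0.04.

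The listed miRNA that was called in the direction of miR-140-3p in both comparisons was miR-145a-5p, a repressor of Sox9. It was at 2866 ± 1168 CPM in S6h, 9040 ± 3743 in S24h and 5819 ± 1923 in S72h, with 3570 ± 1628 in Control. By edgeR's quasi-likelihood test it was higher in S24h than in S6h by 1.41 (adjusted p = 0.00159) and in S72h than in S6h by 0.99 (adjusted p = 0.0365). It was also called in S24h against Control, by 1.19 (adjusted p = 0.0111). The call in S72h against S6h was lost without a scaling factor, without a filter and in 7 of the 24 fits that left out 1 mouse, while both calls in S24h remained in all fits. Its other arm, miR-145a-3p, went the opposite way, from 585 ± 312 CPM in S6h to 153 ± 92.3 in S24h (log2 fold change -2.19, adjusted p = 0.00941 by edgeR).

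The other 4 called lower in S24h than in S6h were miR-27b-3p (-2.30), miR-199a-3p (-2.26), miR-29a-3p (-1.66) and miR-218-5p (-3.83), on the log2 scale. miR-27b-3p fell from 10379 ± 2500 to 2499 ± 654 CPM and miR-29a-3p from 13101 ± 2811 to 4910 ± 665 CPM. Their adjusted p values by edgeR were 1.8e-05 and 3.0e-05. miR-199a-3p, of skeletal mesenchyme and platelets, went from 3544 ± 1372 to 886 ± 526 CPM (edgeR adjusted p = 0.000491). miR-218-5p was near the floor in S24h (12.5 ± 30.6 CPM), so that its fitted value depends on the prior count, and its call remained in 4 of 11 alternatives and in 12 of 24 fits without 1 mouse. In S72h against S6h the 2 called lower were miR-27b-3p (-1.11) and miR-29a-3p (-0.88), and both were lost without a filter, with only the groups compared, and each in 4 of 24 fits without 1 mouse. miR-29a-3p was also lost with upper quartile scaling and without a scaling factor.

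Against Control, 0 of 15 were called in S6h (0% of all 252), 2 higher and 4 lower in S24h (40.0%, beside 11.9% of all) and 1 higher in S72h (6.67%, beside 3.57%). The median log2 fold changes of the list were 0.23, -0.79 and -0.48, beside -0.02, -0.21 and -0.06 over all tested. The 2 higher in S24h were miR-145a-5p and miR-26a-5p, which has been studied in the differentiation of bone-forming cells. miR-26a-5p rose from 13152 ± 4492 CPM in Control to 29516 ± 8548 in S24h and 26377 ± 11349 in S72h, by 1.02 and 1.10 on the log2 scale (edgeR adjusted p = 0.0260 and 0.0462). Its call in S72h was lost without a scaling factor, with only the groups compared, with the replicate number as a block, and in 16 of 24 fits without 1 mouse. Its call in S24h was lost in 2 of 24 such fits. The 4 lower were miR-27b-3p (-1.88), miR-145a-3p (-2.17), miR-199a-3p (-1.66) and miR-29a-3p (-1.31), of which miR-145a-3p was lost in 1 of 24 fits without 1 mouse. Between S72h and S24h 0 of 15 were called. miR-455-3p, the tested cartilage marker besides miR-140, was at 56.9 ± 104 CPM in Control, 42.9 ± 44.5 in S6h, 95.4 ± 75.7 in S24h and 54.4 ± 78.8 in S72h. It was not called in any pair of groups. miR-455-5p, which was not tested, was at 3.49 ± 8.56 CPM in Control and 37.0 ± 45.9 in S6h, with 0 in S24h and S72h.

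**Figure D5:**
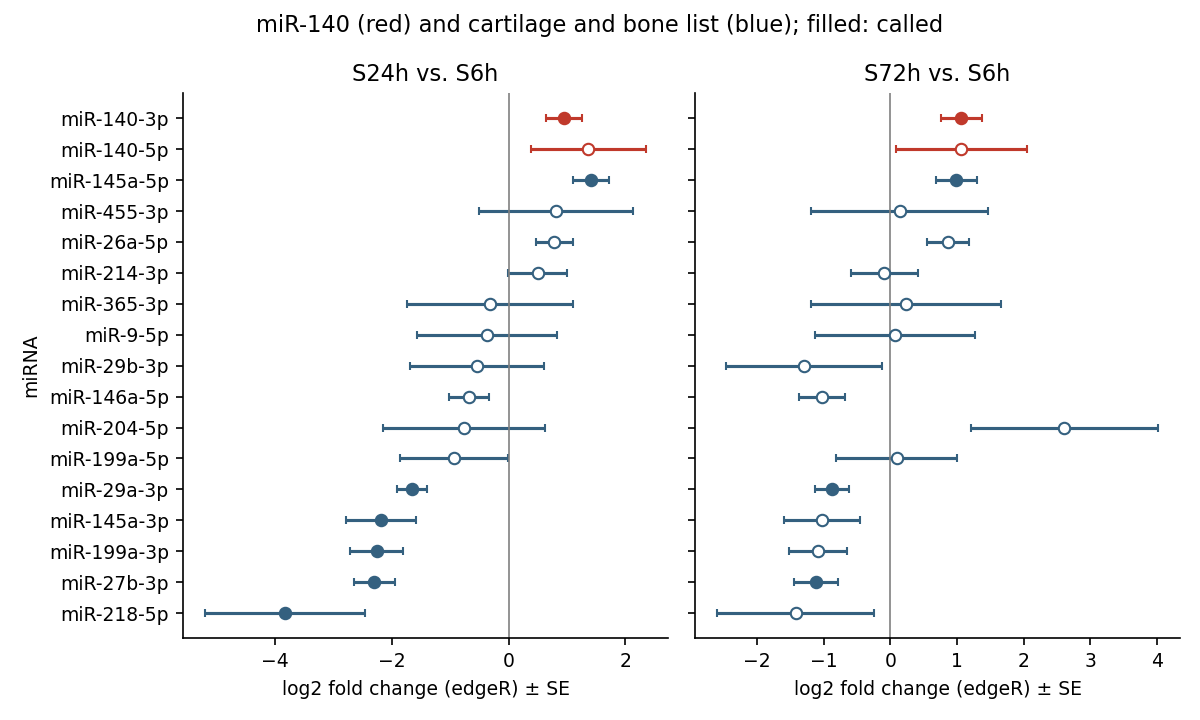
Log2 fold change with SE (edgeR) of miR-140 (red) and the 15 tested miRNAs of the cartilage and bone list (blue), for S24h against S6h (left) and S72h against S6h (right), filled where called. In the left panel miR-140-3p (0.95) and miR-145a-5p (1.41) are filled on the right of 0 and 5 listed miRNAs are filled on the left of it.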

How the data were processed

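Small RNA of serum EVs was sequenced in 24 libraries (6 each of Control, S6h, S24h and S72h), grouped by the sample labels. The authors removed adapters, aligned reads to GRCm38 (mm10), kept reads of 20 to 24 bases and deposited whole-number counts per mature miRNA of miRBase, without normalization. The methods state no removal of PCR copies. Reads whose ends were shifted within an arm were not separated.

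CPM were computed from column totals (63956 to 471801 counts). miRNAs with at least 10 CPM in at least 12 libraries were tested in R 4.3.3 with edgeR 4.0.16 (TMM scaling, 1 model of all groups, Benjamini-Hochberg adjusted p under 0.05 and at least 1.5-fold). Arm ratios (0.5 added) and log2 CPM (4 added) were compared by exact permutation tests in Python 3.11.15. The fit was tested on simulated data. Alternatives concerned the test (DESeq2 1.42.0), scaling, filter, libraries, robust estimation, the replicate number as a block, what was added to the counts, and leaving out each mouse.

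Named miRNAs were both arms, the 3 most correlated with each, called or most abundant members of a cartilage and bone list, neighbours in the order of arm ratios and the leading marker of each cell type list. The members and lists were chosen with earlier results of these data known.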

Additional observations from a re-analysis of the deposited data

Results flagged for a closer look

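The log2 arm ratio of miR-140 in Control replicate 1 lay far from the other 5 Control mice, with a gap to the nearest of them of 0.645 of the whole range of the group. This library had 0 counts of miR-140-5p beside 3279 of miR-140-3p. Such gaps were looked for in 12 sets of 6 mice, where chance gives about 0.6, and 1 was found.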

How the results depend on the processing

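miR-140-3p was called in S24h against S6h and in S72h against S6h under all 12 alternatives that did not leave out a mouse, with log2 fold changes of 0.91 to 1.30 and 1.07 to 1.31 and, in the 11 fits to counts, adjusted p values of 0.000673 to 0.0379 and 0.00237 to 0.0298. The exact permutation test gave 0.0260 and 0.0325, adjusted over the 6 pairs of groups. Leaving out 1 mouse gave 0.85 to 1.10 and 0.96 to 1.22. In S24h against Control the exact permutation test on log2 CPM gave 0.79 and passed the threshold, while the other alternatives did not. For S72h against S24h the sign turned with DESeq2 and with RLE scaling (-0.058 each), without a scaling factor (-0.078) and in the exact permutation test (-0.15). Scaling also moved the median of all miRNAs in S24h against S6h from -0.23 to 0.10 with upper quartile factors, where 23 were called higher and 20 lower in place of 16 and 35. There the split was 22 and 21 with RLE scaling, 19 and 18 without a factor, and 30 and 29 with DESeq2.

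Counts of called miRNAs moved as follows. In S24h against Control DESeq2 called 50. In S72h against Control the count was 27 with DESeq2, 19 with upper quartile scaling, 2 without a factor, 18 at a mean of at least 100 CPM, 0 with only the groups compared, and 21 without the muscle and liver lists. In S72h against S24h it was 4 with DESeq2, 10 without a filter, 0 with only the groups compared, and 2 without the erythroid list. In S6h against Control it was 2 without a filter. Members of the cartilage and bone list called in S72h against S6h numbered 5 with DESeq2 and with robust estimation, 1 without a factor and with only the groups compared, and 0 without a filter. In S72h against Control they numbered 2 with upper quartile scaling and without a filter, 3 without the muscle and liver lists, and 0 without a factor and with only the groups compared. Without 1 mouse, the counts ranged from 1 to 14 (S72h against Control), 32 to 53 (S24h against S6h), 13 to 35 (S72h against S6h) and 1 to 5 (S72h against S24h). Listed members ranged from 0 to 2, 0 to 5 and 0 to 2 in S72h against Control, S6h and S24h.

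miR-140-5p ranged without 1 mouse from -0.55 to 0.055 (S6h against Control) and from -0.55 to 0.15 (S72h against S24h). Its arm ratio differences ranged from -0.88 to 0.80, -1.36 to 0.27 and -0.95 to 0.87 against Control (S6h, S24h, S72h), from -0.96 to 0.088 and -0.67 to 0.69 against S6h (S24h, S72h), and from -0.15 to 0.999 (S72h against S24h), never called. The cause of these shifts was not tested.

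The replicate numbers did not pair the mice, since same-numbered mice had a median correlation of 0.0074 of their deviations and at most 2 of 6 pairs were over 0.1. With the replicate block, miR-140-5p in S6h against Control gave 0.19, and 1 miRNA and 0 listed members were called in S72h against Control. The minimum of 20 counts over both arms removed no library. Low counts limit the 5p arm, with fewer than 10 in 10 of 24 libraries, and mice of 1 group also differed in its share beyond counting error.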
